A study of Mus musculus with 6 samples.

Results

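Interferon-stimulated genes are the genes that cells switch on when interferons bind their receptors. A list of 34 such genes was looked up by symbol in single-nucleus RNA-sequencing matrices of the mouse brain, and 32 of the 34 were among the 32285 genes of the matrices. Mx1 and Mx2 were not analysed here. The 32 measured members were compared between LPA-injected and vehicle-injected mice in each cell class, gene by gene and as a summed level. The matrices come from 6 brains, 3 of LPA-injected and 3 of vehicle-injected C57BL/6 S-56 mice, each giving 1 library. Neonates at P7 received 5 µl of lysophosphatidic acid (LPA 18:1) or of the bovine serum albumin vehicle into the right lateral ventricle, a model of post-hemorrhagic hydrocephalus, and brains without olfactory bulbs and cerebellum were collected at P15. The LPA concentration used for these 3 brains is not given in the sources used here. Every library was prepared with the 10x Genomics 3′ v3 kit from nuclei sorted as negative for NeuN, which marks neurons, and the libraries are called LPA 1 to LPA 3 and Vehicle 1 to Vehicle 3 after their labels.

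Type I interferons bind the receptor made of Ifnar1 and Ifnar2 on almost every cell type. The bound receptor activates the kinases Jak1 and Tyk2, and Stat2 then acts with Irf9 in a complex that enters the nucleus and binds interferon-stimulated response elements in the promoters of the induced genes. Products of these genes sense viral nucleic acid, block translation or virus growth, and tag or modify proteins, while a few, such as Usp18, damp the receptor itself. In the brain, microglia, astrocytes and endothelial cells can all respond to interferon, and low levels of many of these genes are present without infection.

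The response element was searched as the letters GAAANNGAAA, or TTTCNNTTTC for the other strand, in the 250 bases before the start of each gene in the RefSeq promoter table (GRCm38.p6). Promoters were given for 24 of the 34 members, and 9 of the 24 (37.5%) held the letters, against 695 of 20267 measured genes (3.43%). The 7 members below are shown because they held a match and were tested in at least 1 class. Each line gives 60 bases of the gene's own strand, 5′ to 3′, with every match that lies in it in capitals, and in Bst2 and Isg15 the matches overlap and form 1 run of capitals. Slfn5, a member of the schlafen family, lies at chr11:82951922-82951981 (+), inside an intron of the GENCODE model of Slfn5 and of the antisense model Slfn5os, and all others lie between genes.
Slfn5: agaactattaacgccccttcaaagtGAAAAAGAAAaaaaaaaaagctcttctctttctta
Trim30a, chr7:104465195-104465254 (−): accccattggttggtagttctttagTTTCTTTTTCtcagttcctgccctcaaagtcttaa
Stat2, chr10:128270251-128270310 (+): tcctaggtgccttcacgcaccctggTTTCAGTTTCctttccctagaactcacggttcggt
Bst2, chr8:71537562-71537621 (−): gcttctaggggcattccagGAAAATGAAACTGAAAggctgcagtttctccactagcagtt
Isg15, chr4:156200850-156200909 (−): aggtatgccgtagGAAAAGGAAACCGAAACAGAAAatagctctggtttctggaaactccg
Ifit3, chr19:34583382-34583441 (+): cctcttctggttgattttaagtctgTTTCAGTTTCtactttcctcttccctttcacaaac
Ifit1, chr19:34640779-34640838 (+): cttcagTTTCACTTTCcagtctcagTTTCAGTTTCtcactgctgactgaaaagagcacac
Isg15 held 3 matches in its 250 bases, Bst2, Ifit1 and Ifit3 held 2 each, and Slfn5, Trim30a and Stat2 held 1 each. Of these 7, only Slfn5, Trim30a and Stat2 are among the 8 members that passed the test in a class. Rnf213, Ddx58, Xaf1 and Eif2ak2, which also passed it, held no match in this window, and no promoter was given for Parp14. A match is a description of letters and does not show that a factor binds there.

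Each library held 8639 to 12894 barcodes with 48852970 to 65688644 unique molecular identifiers (UMIs), and 57443 nuclei were kept over the 6 libraries. Clusters of nuclei were named from marker genes, and a class name means nuclei that are like that class by these markers. The classes held 15934 neuronal, 13066 oligodendrocyte, 10385 astrocyte, 6797 vascular, 2109 immune and 2108 ependymal nuclei. Neurons were thus the most numerous class although NeuN-positive nuclei had been gated out. Another 7044 nuclei could not be given 1 class by their markers and stayed unnamed. In each class the summed markers of the class itself were higher in every library than in any other class. Between 103 and 147 barcodes of each library also occurred in another library. Read from Xist and genes on chromosome Y, LPA 1, Vehicle 1 and Vehicle 3 were male and LPA 2, LPA 3 and Vehicle 2 female. The levels below are UMIs per 1000000 UMIs of the class in a library (CPM), and the tests are edgeR's quasi-likelihood tests on the summed UMIs of the 6 libraries with Benjamini-Hochberg adjustment over all genes tested in the class. A gene was called, or said to have risen or fallen, if its adjusted p was below 0.05 and its log2 fold change was 0.25 or more in either direction. Nothing in the labels says whether each replicate is a separate litter, so p-values measure the spread between these libraries. Trim30a, the Slfn, Ifit and Oas genes, and Gbp3, Ifi203 and Mndal among the pathway genes, belong to families of similar copies that could share reads, and their values are uncertain to that extent. Irf9 overlaps Rnf31, and Rtp4 overlaps Gm45338, on the same strand, so the values of Irf9 and Rtp4 are uncertain too.

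Members were called in astrocytes, oligodendrocytes and vascular cells, 8 pairs of member and class in all, and in these fits every called member was higher in LPA libraries. In astrocytes 19 of the 32 measured members passed edgeR's filter on low counts and 5 rose, which is 26.3% of those tested, against 4.89% of all genes tested in astrocytes that rose and 3.02% that fell. These 5 were Rnf213, Ddx58, Trim30a, Stat2 and Parp14. The median log2 fold change of the 19 was 0.37, against −0.01 over all genes, and 18 of the 19 had a higher level in LPA libraries. In vascular cells 26 members were tested and 2, Slfn5 and Xaf1, rose (7.69%), against 4.77% of all genes that rose and 3.26% that fell. In oligodendrocytes 18 members were tested and 1, Eif2ak2, rose (5.56%), which is under the 7.68% of all genes that rose in this class, while 4.33% of all genes fell. The filter keeps genes that are expressed in enough libraries of either group, so a member expressed in 1 group alone could enter through that group.

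No member was called in ependymal cells, immune cells or neurons by the edgeR test. In ependymal cells 14 members were tested, 10 of them higher in LPA libraries, with 2 at an unadjusted p under 0.05 and a median log2 fold change of 0.21. Of all genes there, 2.34% rose and 0.735% fell. In immune cells 18 were tested, 13 of them higher, with 3 at an unadjusted p under 0.05 and a median of 0.20. Of all genes there, 3.62% rose and 2.44% fell. In neurons 20 were tested, 14 of them higher, with 4 at an unadjusted p under 0.05 and a median of 0.12, and almost no gene of any kind was called (0.0757% rose and 0.0699% fell). Over all genes the median log2 fold change was −0.015 in ependymal cells, −0.007 in immune cells and −0.004 in neurons. The shares of all genes are of genes called at the adjusted threshold, so they cannot be set beside the counts of members at an unadjusted p. The share of all genes at an unadjusted p is not given here, so those counts have no background beside them. DESeq2 also called no member in these 3 classes.

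Within the vascular and immune classes, subtypes with at least 10 nuclei in each library were tested too, and none of them had a called member, by edgeR or by DESeq2. Homeostatic microglia had 12 members tested, 10 of them higher in LPA libraries, with a median log2 fold change of 0.30, against −0.01 over all genes. An unadjusted p under 0.05 was reached by 3 of them. Of all genes there, 0.707% rose and 0.745% fell by the adjusted threshold, which is stricter than the unadjusted p. Meningeal cells had 21 members tested with a median of 0.12, against 0.503% of genes that rose and 0.455% that fell. Pericytes had 14 tested with a median of 0.14 (0.0376% of genes rose and 0.501% fell), and endothelial cells had 17 tested with a median of 0.05 (0.0119% rose and 0.0954% fell). Macrophages, with 164 nuclei, had 2 members tested and no gene of any kind called (0% in each direction). In these last 4 subtypes no member reached an unadjusted p under 0.05. Activated microglia, with 453 of their 455 nuclei in LPA libraries, could not be tested.

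**Figure D1:**
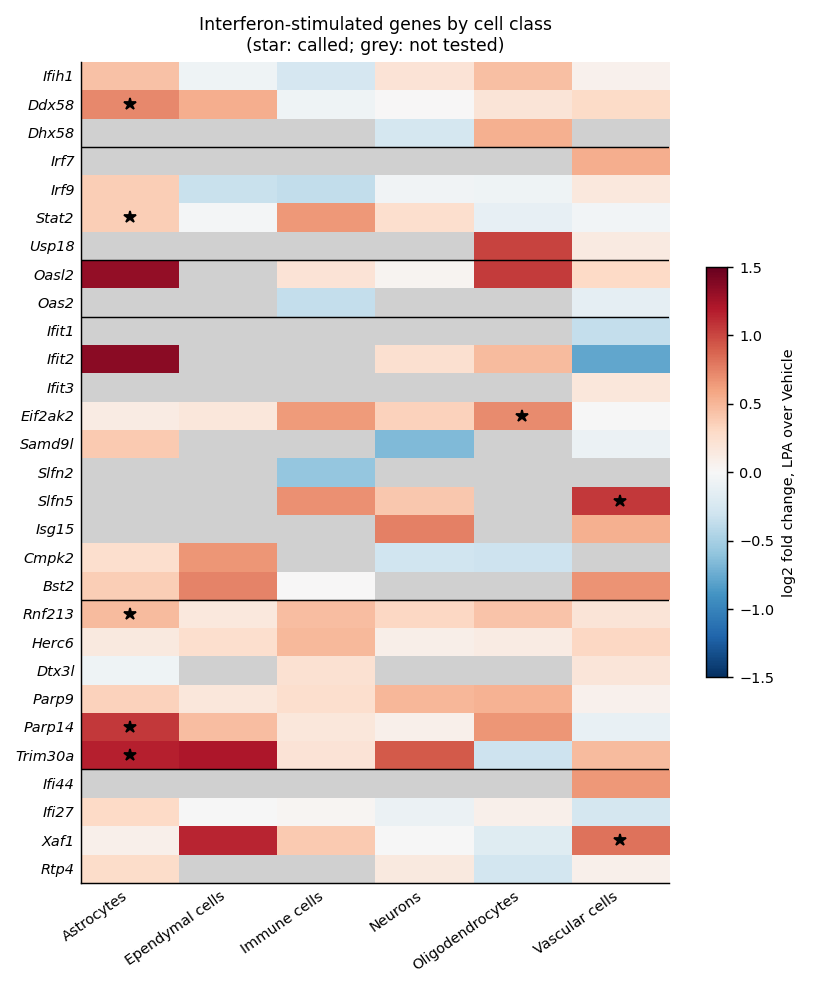
Log2 fold change (LPA over Vehicle) of each measured member that was tested, by cell class. Rows are members grouped by role, the color runs from blue (lower in LPA) to red (higher in LPA), grey marks pairs that were not tested and a star marks the 8 called pairs, 5 of which are in the astrocyte column.

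The sensors of viral nucleic acid are the helicases Ddx58 (RIG-I), Ifih1 (MDA5) and Dhx58 (LGP2), and Zbp1, which binds nucleic acid in the Z form. Ddx58 (chr4:40203773-40239828, minus strand) rose in astrocytes. Its level was 20.0, 16.1 and 15.8 CPM in LPA 1, LPA 2 and LPA 3 and 9.15, 12.3 and 9.67 CPM in Vehicle 1, Vehicle 2 and Vehicle 3, from 328 and 155 UMIs. The groups did not overlap, with LPA 1 highest and Vehicle 1 lowest. The log2 fold change was 0.72 ± 0.16 (SE, adjusted p = 0.00850), and Ddx58 kept its call in all 14 alternative fits that were run for the whole class. In vascular cells Ddx58 stood at 57.5, 59.2 and 66.0 CPM in LPA libraries and at 54.9, 44.0 and 51.6 CPM in Vehicle libraries, again without overlap, but did not pass the test (log2 fold change 0.29 ± 0.11, adjusted p = 0.156). In neurons its log2 fold change was 0.01 ± 0.17. Ifih1 was tested in all 6 classes and not called, with log2 fold changes from −0.25 in immune cells to 0.45 in oligodendrocytes. Dhx58 was tested in 2 classes and not called, and Zbp1, with 68 UMIs in all nuclei, was tested in none.

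The transcription factors Stat2, Irf9 and Irf7 and the feedback protease Usp18, which removes Isg15 from proteins, form the second group. Stat2 (chr10:128270559-128292849, plus strand) rose in astrocytes, from 38.0, 41.1 and 37.3 CPM in the Vehicle libraries to 45.9, 48.5 and 55.8 CPM in the LPA libraries. All 3 LPA libraries were above all 3 Vehicle libraries, and LPA 3 was the highest. The log2 fold change was 0.37 ± 0.10 (SE, adjusted p = 0.0195, 945 and 569 UMIs). The call depended on single libraries, since the adjusted p was 0.119 without LPA 3 and 0.0818 without Vehicle 3. It was also lost with DESeq2 (adjusted p = 0.0573) and with the sex of the library as a term (adjusted p = 0.0535).

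Elsewhere Stat2 was not called. In immune cells it was 66.3, 75.8 and 78.6 CPM in LPA libraries against 67.9, 37.4 and 50.9 CPM in Vehicle libraries, with overlap at Vehicle 1 and a log2 fold change of 0.65 ± 0.25 (adjusted p = 0.134). Among homeostatic microglia it was 60.4, 63.7 and 62.99 CPM against 54.4, 36.0 and 32.9 CPM, without overlap (log2 fold change 0.63 ± 0.30, adjusted p = 0.442). In oligodendrocytes, where it made up 42.6% of all member UMIs, it stood at 62.6, 68.9 and 73.1 CPM in LPA libraries and at 82.0, 70.2 and 69.5 CPM in Vehicle libraries. The groups overlapped and the log2 fold change was −0.13 ± 0.08 (adjusted p = 0.3331). In neurons it was 33.3, 34.7 and 34.4 CPM in LPA libraries against 32.1, 28.6 and 26.2 CPM in Vehicle libraries, without overlap, at a log2 fold change of 0.25 ± 0.08 that did not pass (adjusted p = 0.559). In vascular cells it was 56.5, 57.5 and 66.0 CPM against 63.6, 63.7 and 58.7 CPM, overlapping, with a log2 fold change of −0.04 ± 0.10. Irf9, the DNA-binding partner of Stat2, stood in neurons at 13.5, 14.8 and 14.03 CPM in LPA libraries and at 18.7, 13.1 and 12.9 CPM in Vehicle libraries, so that Vehicle 1 was the highest of all (log2 fold change −0.06 ± 0.14). Irf9 was tested in all 6 classes and not called, with log2 fold changes from −0.37 in immune cells to 0.37 in astrocytes. Irf7, which drives interferon alpha genes, was tested in vascular cells only, and Usp18 in oligodendrocytes and vascular cells, and neither was called.

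The oligoadenylate synthases make a short RNA messenger that activates RNase L. Oasl2 came close to the threshold in astrocytes, with 6.13, 2.93 and 3.20 CPM in LPA libraries and 0.572, 2.45 and 1.41 CPM in Vehicle libraries. LPA 1 was far above the other libraries, and the groups did not overlap (log2 fold change 1.32 ± 0.41, adjusted p = 0.0581, 77 and 24 UMIs). In the other 4 classes tested, Oasl2 had log2 fold changes from 0.04 in neurons to 1.04 in oligodendrocytes. Oas2 was tested in immune and vascular cells and was lower in LPA libraries in both, not passing the test, and Oas3 had 17 UMIs in all nuclei.

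Proteins that block translation or virus growth made up the largest group, with 11 measured members. Eif2ak2 (chr17:78852564-78882573, minus strand), the kinase PKR that stops translation when it binds double-stranded RNA, rose in oligodendrocytes. Its level there was 6.47, 7.08 and 9.99 CPM in LPA libraries and 5.44, 5.34 and 3.46 CPM in Vehicle libraries, with 243 and 152 UMIs. LPA 3 was the highest and Vehicle 3 the lowest, and the groups did not overlap. The log2 fold change was 0.71 ± 0.21 (SE, adjusted p = 0.0337). The adjusted p was 0.0674 without LPA 2, 0.168 without LPA 3, 0.154 without Vehicle 3 and 0.0885 with a term for sex. In immune cells Eif2ak2 was 92.1, 92.0 and 113.6 CPM in LPA libraries against 63.1, 64.6 and 62.2 CPM in Vehicle libraries, well apart, and just missed the threshold (log2 fold change 0.64 ± 0.21, adjusted p = 0.0689). In astrocytes, where it had the most UMIs of all members, it stood at 52.5, 49.7 and 57.4 CPM in LPA libraries and at 47.5, 52.2 and 48.0 CPM in Vehicle libraries, with overlap (log2 fold change 0.12 ± 0.09, adjusted p = 0.481). In vascular cells its log2 fold change was −0.01 ± 0.11.

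Slfn5 (chr11:82951349-82964840, plus strand) had the lowest adjusted p of all members in vascular cells. It stood at 56.1, 53.1 and 57.5 CPM in LPA libraries and at 33.5, 22.97 and 25.1 CPM in Vehicle libraries, from 409 and 309 UMIs. All LPA libraries were far above all Vehicle libraries, and the log2 fold change was 1.06 ± 0.14 (SE, adjusted p = 0.000486). The call was kept in all 14 alternative fits for the whole class, but the makeup of the class moved with it, as described further on. Ifit2, a protein that binds foreign RNA, was close to the threshold in opposite directions. In astrocytes it was 3.07, 2.93 and 1.78 CPM in LPA libraries against 0.286, 0.982 and 1.61 CPM in Vehicle libraries (log2 fold change 1.35 ± 0.43, adjusted p = 0.0616). In vascular cells it was 4.31, 8.46 and 8.94 CPM in LPA libraries against 10.0, 14.3 and 13.3 CPM in Vehicle libraries (log2 fold change −0.78 ± 0.26, adjusted p = 0.0924), and it was called lower there without a filter on low counts, with a term for sex and without Vehicle 1 (adjusted p = 0.0243, 0.0434 and 0.0443). Of the others, the membrane protein Bst2 (tetherin) was higher in LPA libraries in all 4 classes in which it was tested, with log2 fold changes from 0.01 to 0.75, and the ubiquitin-like Isg15 in both of its classes, and neither was called. Cmpk2, Samd9l, Slfn2, Ifit1 and Ifit3 were tested in 1 to 4 classes and not called, and Rsad2 (viperin), with 233 UMIs in all, was not tested.

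The fourth large group holds enzymes that attach ubiquitin, Isg15 or ADP-ribose, and it gave 3 of the 5 calls in astrocytes. Rnf213 (chr11:119393100-119487418, plus strand), a very large ubiquitin ligase, was 53.0, 53.5 and 56.9 CPM in LPA libraries and 41.8, 39.8 and 37.3 CPM in Vehicle libraries, from 1031 and 574 UMIs. The libraries of each group lay close together and the groups well apart. The log2 fold change was 0.48 ± 0.08 (SE, adjusted p = 0.00124), and the call held in all 14 alternative fits for the whole class. Trim30a (chr7:104409025-104465193, minus strand), of the tripartite motif family, was 5.97, 5.03 and 8.002 CPM in LPA libraries and 2.86, 3.11 and 2.42 CPM in Vehicle libraries, with a log2 fold change of 1.16 ± 0.27 (adjusted p = 0.0116, 118 and 41 UMIs). All LPA libraries were above all Vehicle libraries, and the adjusted p was 0.0634 without LPA 3 and 0.0555 without Vehicle 3. Parp14 (chr16:35832874-35871544, minus strand), an ADP-ribosyltransferase, rose from 2.57, 1.96 and 2.22 CPM in Vehicle libraries to 4.04, 3.77 and 6.05 CPM in LPA libraries (log2 fold change 1.06 ± 0.30, adjusted p = 0.0386, 86 and 32 UMIs). This was the least stable call of the 8, since leaving out any library other than LPA 2 ended it (adjusted p from 0.0505 to 0.177), as did DESeq2 (adjusted p = 0.144).

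In the other classes these enzymes were not called. Rnf213 had a log2 fold change above 0 in each of the 6 classes. In immune cells it was 124.7, 169.5 and 137.6 CPM in LPA libraries against 126.1, 108.7 and 73.5 CPM in Vehicle libraries, with overlap (log2 fold change 0.46 ± 0.18, adjusted p = 0.152). In vascular cells it was 87.2, 85.9 and 96.2 CPM against 89.1, 76.3 and 71.3 CPM, with overlap (log2 fold change 0.20 ± 0.10, adjusted p = 0.304). In oligodendrocytes it was 15.7, 15.02 and 23.5 CPM against 19.0, 10.8 and 10.9 CPM, and Vehicle 1 was above LPA 1 and LPA 2. In ependymal cells it was 37.0, 41.9 and 48.2 CPM against 51.2, 24.5 and 34.4 CPM, and Vehicle 1 was the highest of all 6 libraries.

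Trim30a had the most UMIs of all members in immune cells, at 162.9, 186.6 and 178.0 CPM in LPA libraries and 155.2, 154.6 and 147.0 CPM in Vehicle libraries. The groups did not overlap, but the log2 fold change of 0.21 ± 0.14 did not pass the test (adjusted p = 0.516). In ependymal cells Trim30a was 11.96, 12.5 and 12.95 CPM against 4.94, 4.66 and 6.54 CPM, far apart, and missed the threshold narrowly with 68 and 20 UMIs (log2 fold change 1.21 ± 0.33, adjusted p = 0.0553). Its log2 fold change was below 0 in oligodendrocytes (−0.31 ± 0.37), and that of Parp14 in vascular cells (−0.11 ± 0.21). Herc6, the ligase that attaches Isg15 in the mouse, and Parp9, the partner of the ubiquitin ligase Dtx3l, were tested in all 6 classes, and both had log2 fold changes above 0 in each of them (0.09 to 0.48 for Herc6 and 0.07 to 0.53 for Parp9). Neither was called in a whole class, and Dtx3l, tested in 3 classes, ranged from −0.06 to 0.23.

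Among the other induced genes, Xaf1, which binds the apoptosis inhibitor XIAP, rose in vascular cells. Its level (chr11:72301629-72313733, plus strand) was 15.3, 20.0 and 20.0 CPM in LPA libraries and 12.8, 10.8 and 8.76 CPM in Vehicle libraries, from 138 and 124 UMIs. LPA 2 and LPA 3 were alike and LPA 1 lower, and the groups did not overlap (log2 fold change 0.81 ± 0.20, adjusted p = 0.0200). Leaving out LPA 2, LPA 3, Vehicle 2 or Vehicle 3 ended the call (adjusted p from 0.0546 to 0.0997), as did a term for sex (adjusted p = 0.0533). In ependymal cells Xaf1 was 13.7, 9.06 and 14.5 CPM against 6.79, 5.82 and 4.09 CPM, without overlap (log2 fold change 1.14 ± 0.36, adjusted p = 0.0949). Ifi27 had the most UMIs of all members in ependymal cells and overlapped between groups there, at 47.8, 55.5 and 49.2 CPM in LPA libraries and 51.2, 47.7 and 54.8 CPM in Vehicle libraries (log2 fold change −0.00 ± 0.15). Rtp4 and Ifi44 were tested in 4 classes and 1 class and not called.

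**Figure D2:**
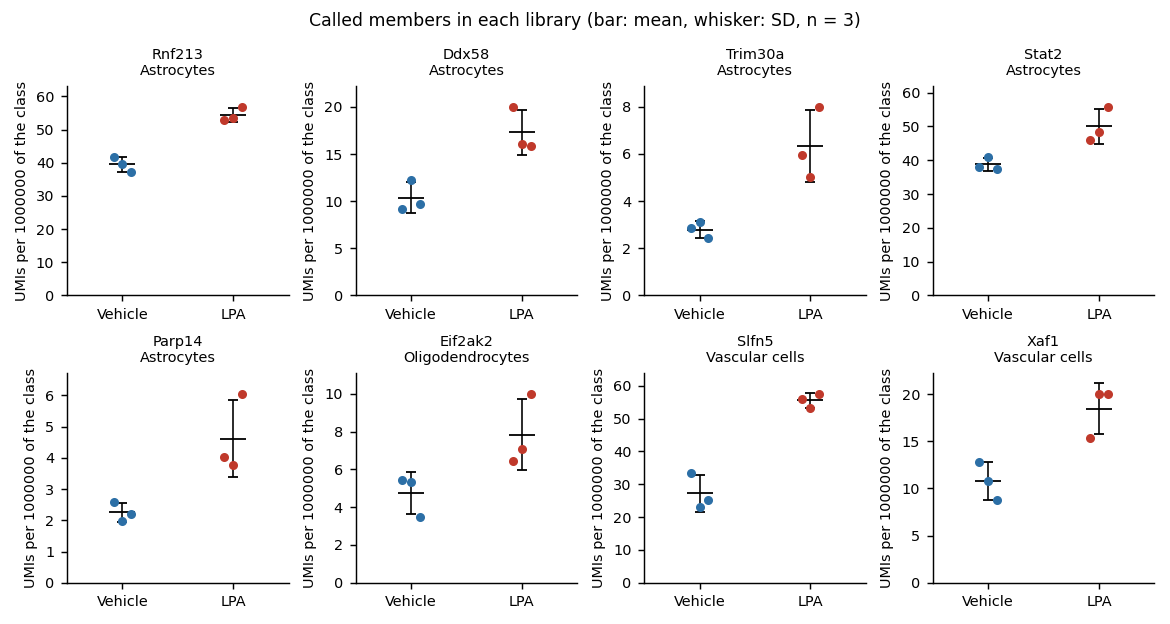
Level of the 8 called pairs of member and class in UMIs per 1000000 UMIs of the class, with 1 point per library, a bar at the mean and whiskers of 1 SD (n = 3 per group). In every panel the 3 LPA points lie above the 3 Vehicle points, with the widest gap relative to the spread for Slfn5 and Rnf213.

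The vascular class had a different makeup in the groups. Meningeal cells were 46.4% to 53.1% of vascular nuclei in LPA libraries against 67.9% to 71.6% in Vehicle libraries, pericytes 21.4% to 26.6% against 14.9% to 16.9%, and endothelial cells 25.5% to 28.2% against 11.5% to 17.1%. Slfn5 was almost absent from meningeal cells, with group means of 4.47 CPM (LPA) and 3.01 CPM (Vehicle), against 63.7 and 51.4 CPM in pericytes and 157 and 133 CPM in endothelial cells. In endothelial cells Slfn5 was 161.7, 151.8 and 156.1 CPM in LPA libraries and 142.3, 115.6 and 140.4 CPM in Vehicle libraries, which did not overlap, but the log2 fold change of 0.22 ± 0.15 did not pass the test (adjusted p = 0.770). In pericytes its log2 fold change was 0.37 ± 0.27 (adjusted p = 0.755). When the shares of the 3 subtypes were held at their mean over the 6 libraries, Slfn5 was 44.3 ± 1.2 CPM in LPA libraries and 36.7 ± 3.5 CPM in Vehicle libraries (SD, n = 3), a ratio of 1.21 in place of 2.04, still without overlap. For Xaf1 the ratio was 1.42 in place of 1.71, with overlap, and its level was 36.5 CPM (LPA) and 23.2 CPM (Vehicle) in endothelial cells, 16.2 and 15.4 CPM in pericytes and 10.8 and 7.39 CPM in meningeal cells.

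**Figure D3:**
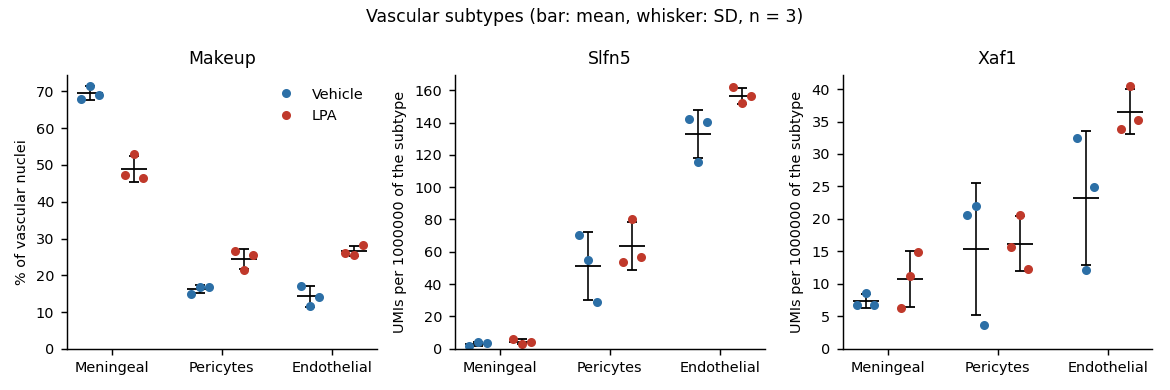
Left, share of vascular nuclei in each subtype (%); middle and right, level of Slfn5 and Xaf1 in UMIs per 1000000 UMIs of the subtype; 1 point per library, bar at the mean, whiskers of 1 SD (n = 3 per group). Meningeal nuclei took a smaller share in LPA libraries, and Slfn5 was near 0 in them and highest in endothelial cells.

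The astrocyte class was made of 3 clusters, led by Grin2c and Slc1a2, by A330076C08Rik and Agt, and by Myoc and C530044C16Rik. The Myoc cluster took 24.2% to 26.1% of astrocytes in LPA libraries against 11.3% to 12.9% in Vehicle libraries. With the shares of the clusters held at their mean, the ratio of LPA to Vehicle was 1.34 for Rnf213, 1.59 for Ddx58, 2.06 for Trim30a, 1.21 for Stat2 and 1.78 for Parp14. These stood in place of 1.37, 1.67, 2.27, 1.29 and 2.05. The groups did not overlap for any of the 5. These members were called in the same libraries and did not overlap before either, so this is no separate support. Fitted on its own, each cluster had fewer members tested. Rnf213 rose in the Grin2c cluster (log2 fold change 0.47, adjusted p = 0.0208) and in the Myoc cluster (0.68, adjusted p = 0.0430), and Herc6 in the Myoc cluster (0.73, adjusted p = 0.0267). That made 1 of 13, 2 of 10 and, in the cluster led by A330076C08Rik and Agt, 0 of 12 members called, against 1.46%, 5.42% and 0.105% of all genes that rose in these clusters. Ddx58 had log2 fold changes of 0.51, 0.87 and 0.79 in the Grin2c, A330076C08Rik and Myoc clusters, not called in any of them. Stat2 had 0.31, 0.36 and 0.27 in the same order, also not called. Trim30a was tested only in the A330076C08Rik cluster (0.25 ± 0.43, adjusted p = 0.904). Parp14 was tested only in the Grin2c cluster (1.01 ± 0.46, adjusted p = 0.306).

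Immune markers were also found in astrocytes, at summed levels that overlapped between the groups. All 14 immune markers were detected there, none was at 0, and 12 had a higher mean in LPA libraries. Their summed level in astrocytes was 87.8 to 114.8 CPM in LPA libraries and 70.7 to 106.5 CPM in Vehicle libraries, or 0.874% to 1.12% and 0.508% to 0.830% of their level in immune cells. Within immune cells these markers were lower in LPA libraries, at 9999.8 to 10854.8 CPM against 12739.5 to 13912.2 CPM, so the share depends on that level too. The same share of each member's level in immune cells would give a difference between groups of 0.810 CPM for Rnf213, where 14.9 CPM was measured. The corresponding values were 0.133 of 6.94 CPM for Ddx58, 0.7997 of 3.54 CPM for Trim30a, 0.424 of 11.3 CPM for Stat2 and 0.509 of 2.37 CPM for Parp14. Astrocyte nuclei were also sequenced more deeply in LPA libraries, with a median of 3247 to 3415 UMIs against 2527 to 3014. The parts of immune RNA and of depth in these results were not tested.

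In oligodendrocytes the cluster led by Pdgfra and Tmem255b, precursor cells by that gene, took 27.0% to 31.3% of nuclei in LPA libraries against 15.7% to 20.4% in Vehicle libraries. Eif2ak2 was 12.1 CPM (LPA) and 10.6 CPM (Vehicle) in that cluster and 18.5 and 12.3 CPM in the cluster led by Nkx2-2 and Neu4, against 2.81 to 7.90 CPM in the 4 other clusters. With the shares of the clusters held at their mean, the ratio of LPA to Vehicle for Eif2ak2 was 1.40 in place of 1.65, and the groups overlapped. No member was called in any of the 6 oligodendrocyte clusters fitted on their own, where 2 to 10 members were tested and few genes of any kind were called (0.119% rose and 0.181% fell).

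Differences between classes were tested directly, by the interaction of class and treatment in each of the 15 pairs of classes with library as a term. Of 371 tests of members, 11 (2.96%) passed an adjusted p of 0.05, in 5 pairs, against 3.73% of the tests of all genes, so the share was no higher among members. Stat2 accounted for 4 of them. Its log2 fold change was higher in astrocytes than in oligodendrocytes by 0.49 (adjusted p = 0.00179), and this difference passed with each library left out in turn. With the makeup of both classes held fixed it was 0.27. Parp14 changed more in astrocytes than in vascular cells, by 1.23 (adjusted p = 0.0115), and the difference was lost without Vehicle 2 (adjusted p = 0.160). Ifit2 also differed between astrocytes and vascular cells, by 2.18 (adjusted p = 0.00508), with each library left out in turn too, but at fixed makeup the difference was 1.28 and its groups overlapped in both classes. Eif2ak2 changed more in oligodendrocytes than in vascular cells, by 0.71 (adjusted p = 0.0202), a difference that was lost without LPA 3 (adjusted p = 0.135) or Vehicle 3 (adjusted p = 0.138).

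The summed level of the 32 members, their UMIs per 1000000 UMIs of a class, gives the size of the whole module and carries no test, since the members were chosen with results of these data known. In astrocytes it was 349.7, 330.9 and 365.4 CPM in LPA 1, LPA 2 and LPA 3 and 272.0, 281.5 and 275.1 CPM in Vehicle 1, Vehicle 2 and Vehicle 3, a ratio of group means of 1.26. The groups did not overlap, and the Vehicle libraries lay close together. In ependymal cells it was 348 ± 14 CPM (SD, n = 3) against 305 ± 18 CPM, a ratio of 1.14, also without overlap. Immune markers in ependymal cells stood at 2.72% to 3.78% of their level in immune cells in LPA libraries against 1.92% to 2.21% in Vehicle libraries, and the same share of the members' immune level would give 17.8 of the 43.5 CPM of difference. In astrocytes the corresponding values were 5.40 of 72.5 CPM. The shares given here and below also depend on the level of the markers within immune cells, which was lower in LPA libraries. The part of immune RNA was not tested. In immune cells the summed member level was 1049, 1119 and 1169 CPM in LPA libraries against 907, 1023 and 746 CPM in Vehicle libraries, a ratio of 1.25. Activated microglia were 25.4% to 39.0% of the immune nuclei of LPA libraries and at most 1.55% of those of Vehicle libraries. Among homeostatic microglia alone the ratio was 1.44, with 901, 934 and 1080 CPM in LPA libraries and 634, 787 and 601 CPM in Vehicle libraries, again without overlap. In these nuclei 6 of the 8 macrophage markers had a higher mean in LPA libraries and 1 was at 0, with a summed level of 413 to 540 CPM against 121 to 163 CPM. Of the 8 markers of activated microglia, 7 were higher and none was at 0 (922 to 1514 against 562 to 842 CPM). The part of these cell types in the result was not tested.

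The groups overlapped in the other classes. The ratio was 1.10 in neurons, 1.05 in oligodendrocytes and 1.11 in vascular cells. The same share of immune RNA would give 8.19 of the 10.4 CPM of difference in neurons, 3.87 of 7.89 CPM in oligodendrocytes and 10.5 of 69.7 CPM in vascular cells. Within vascular cells it was 1.04 in meningeal cells, 1.07 in pericytes and 1.07 in endothelial cells. In macrophages it was 0.878, with Vehicle libraries from 1165 to 2340 CPM. By role, the group of ubiquitin and ADP-ribose enzymes in astrocytes stood at 122 to 132 CPM in LPA libraries and 95.6 to 102.8 CPM in Vehicle libraries, and the transcription factor group at 69.1 to 81.8 against 56.2 to 60.1 CPM, both without overlap. The inhibitors of translation and virus growth overlapped there (65.8 to 75.8 against 56.6 to 67.7 CPM).

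The classes differed more from each other than the groups did. Over the 6 libraries the summed level was highest in macrophages (mean 1752 CPM) and lower in endothelial cells (978 CPM), homeostatic microglia (823 CPM), meningeal cells (644 CPM) and pericytes (546 CPM). Ependymal cells (327 CPM) and astrocytes (312 CPM) were neighbors whose order held in 4 of 6 libraries, and oligodendrocytes (167 CPM) and neurons (107 CPM) followed, in that order in all 6.

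**Figure D4:**
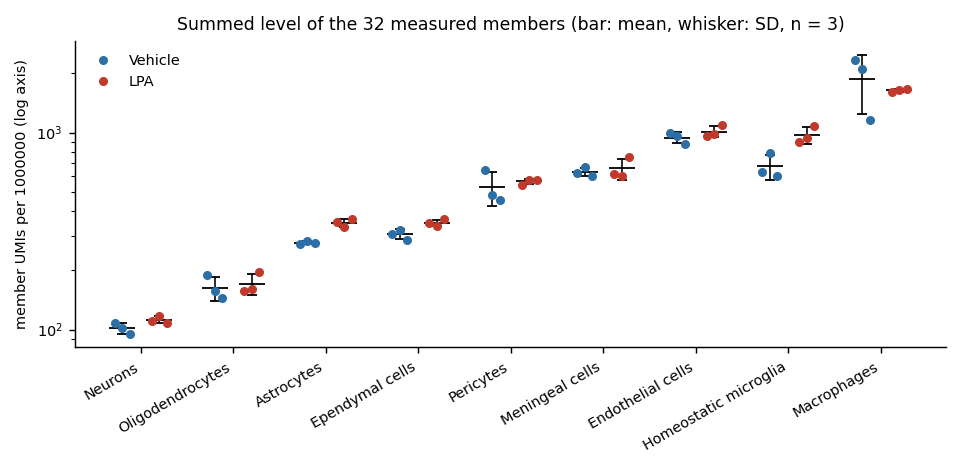
Summed level of the 32 measured members in UMIs per 1000000 UMIs of the class or subtype (log axis), with 1 point per library, a bar at the mean and whiskers of 1 SD (n = 3 per group). LPA points lie above all Vehicle points in astrocytes, ependymal cells and homeostatic microglia and overlap with them in the other classes drawn.

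Most nuclei held few of these transcripts. Of the 57443 nuclei, 26356 had no UMI of any member and 18501 had UMIs of 1 member, while 2239 nuclei had UMIs of at least 4 members and a single meningeal nucleus of Vehicle 2 had UMIs of 22. In astrocytes the share with at least 4 members was 2.97%, 1.96% and 3.37% in LPA libraries and 0.897%, 1.21% and 0.857% in Vehicle libraries, without overlap. In homeostatic microglia it was 8.79%, 8.59% and 10.0% against 2.70%, 4.46% and 1.04%, without overlap and far apart, in the nuclei whose macrophage and activated microglia markers were also higher. In immune cells as a whole it was 14.5%, 13.2% and 12.8% against 8.33%, 8.92% and 3.10%. Oligodendrocytes had 0.885%, 0.606% and 1.23% against 0.846%, 0.327% and 0%, and none of the 2471 oligodendrocytes of Vehicle 3 had 4 members, which allows a share of up to 0.121%.

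This share depends on the number of UMIs of a nucleus. The median UMI count was higher in all LPA libraries than in all Vehicle libraries in astrocytes, ependymal cells, immune cells and vascular cells. The same held in every tested immune and vascular subtype. For thinned values, nuclei under 2000 UMIs were left out and each other nucleus was thinned to 2000 UMIs. The thinned and unthinned shares are thus of different sets of nuclei. After thinning, the astrocyte share was 0.797%, 0.456% and 1.45% in LPA libraries and 0.298%, 0.512% and 0.475% in Vehicle libraries. LPA 2 was below Vehicle 2 and Vehicle 3, and the groups overlapped. The means were then 0.900% and 0.428%, in place of 2.76% and 0.988% over all astrocytes. In ependymal cells the means were 1.26% and 0.813%, in place of 8.23% and 4.14%. In meningeal cells the thinned mean was lower in LPA libraries (4.41%) than in Vehicle libraries (4.98%), where the unthinned mean had been higher (14.6% against 9.16%). Too few immune nuclei held 2000 UMIs for a thinned value.

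**Figure D5:**
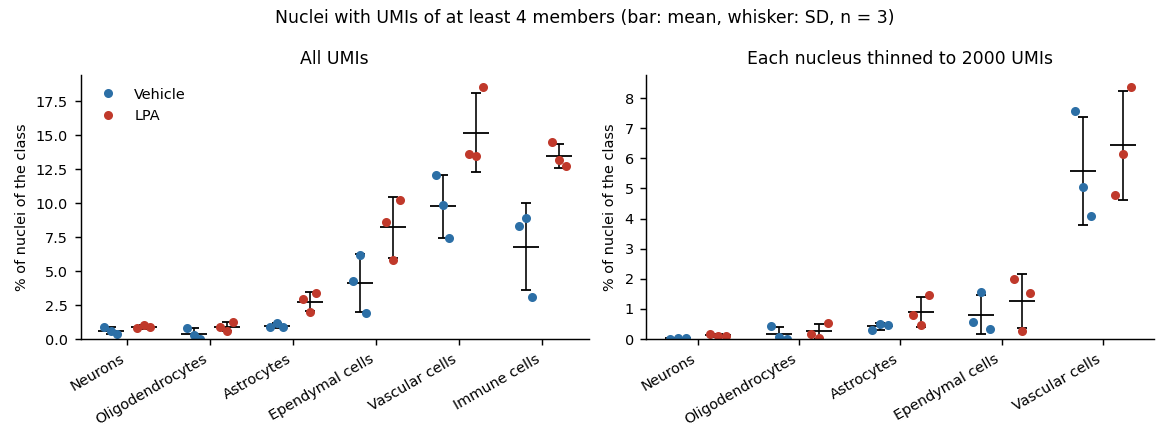
Share of nuclei (%) with UMIs of at least 4 different members, with 1 point per library, a bar at the mean and whiskers of 1 SD (n = 3 per group). Left, all nuclei with all UMIs. Right, only nuclei of at least 2000 UMIs, each thinned to 2000 UMIs. With all UMIs the astrocyte points of LPA libraries (1.96% to 3.37%) lie above those of Vehicle libraries (0.857% to 1.21%), and after thinning they overlap.

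Other genes of the interferon pathway were taken from lists that, like the members, were chosen with earlier results of these data known. Counts from these lists are therefore a description and no separate support. None of the 20 interferon ligand genes had enough UMIs to be tested in any class except 1 in oligodendrocytes, and it was not called. Of the 6 receptor genes, Ifnar2 rose in oligodendrocytes (log2 fold change 0.39, adjusted p = 0.00406) and Ifnar1, its partner, in vascular cells (0.44, adjusted p = 0.0224). Of all genes, 7.68% and 4.77% rose in these classes. With the makeup of oligodendrocytes held fixed, the ratio of LPA to Vehicle for Ifnar2 was 1.09 in place of 1.33, without overlap. Il10rb, a chain shared by the receptors of interferon lambda and IL-10, rose in immune cells (0.75, adjusted p = 0.0166). No receptor gene was called in astrocytes among the 5 tested. Of the sensing genes, Irf3 fell by 0.26 on the log2 scale in oligodendrocytes (adjusted p = 0.0349) and Tmem173, the adaptor STING, by 1.02 in immune cells (adjusted p = 0.0424). Within homeostatic microglia Tmem173 did not pass the test (−0.66 ± 0.32, adjusted p = 0.445). The part of the changed makeup of immune cells was not tested. Socs3, the feedback inhibitor of cytokine receptors, rose in astrocytes (log2 fold change 2.79, adjusted p = 0.000811). Its level was low, at 3.39, 2.79 and 5.69 CPM in LPA libraries and 0.572, 0.655 and 0.403 CPM in Vehicle libraries. With the makeup of astrocytes held fixed, its ratio was 4.52 in place of 7.29, without overlap.

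A further list held 52 interferon-stimulated genes outside the 34 members, 51 of them measured. In astrocytes 4 of 21 tested rose (against 4.89% of all genes) and none fell. Ddx60, a helicase related to the sensors, was 15.7, 12.01 and 19.4 CPM in LPA libraries and 2.57, 4.42 and 5.64 CPM in Vehicle libraries there (log2 fold change 1.84, adjusted p = 0.000106). It also rose in ependymal cells (1.84, adjusted p = 0.0142) and in immune cells, from 111.6, 118.9 and 90.4 CPM to 208.9, 211.3 and 273.0 CPM (1.05, adjusted p = 4.72e-05), which were the only classes of the 6 with a call for it. Apobec3, which edits viral DNA, rose in astrocytes (0.49, adjusted p = 0.0172), and of the interferon gamma targets Gbp3, a guanylate-binding protein, rose in astrocytes (1.37, adjusted p = 0.00167) and oligodendrocytes (0.92, adjusted p = 0.0482). With the makeup of astrocytes held fixed, the ratio of LPA to Vehicle for Apobec3 was 1.26 in place of 1.39, with overlap. There it was 3.14 in place of 3.72 for Ddx60 and 2.77 in place of 2.74 for Gbp3, both without overlap. In immune cells 1 of the 25 tested genes of the further list rose (against 3.62% of all genes) and 1 fell (against 2.44%), the latter being Mndal, at 23.6, 22.1 and 16.4 CPM in LPA libraries against 58.2, 74.8 and 56.5 CPM in Vehicle libraries (−1.68, adjusted p = 6.53e-05). Macrophages, where Mndal stood at 166 to 207 CPM in LPA libraries and 142 to 326 CPM in Vehicle libraries, were 3.52% to 5.70% of immune nuclei in LPA libraries against 12.1% to 17.1% in Vehicle libraries. Mndal rose in vascular cells (0.64, adjusted p = 0.0280). Nlrc5, which activates MHC class I genes, rose in immune cells (1.76, adjusted p = 0.0151). Its level was low, at 30.3, 35.8 and 28.4 CPM in LPA libraries against 0, 8.49 and 22.6 CPM in Vehicle libraries. Within homeostatic microglia no gene of any pathway list was called, where 0.707% of all genes rose and 0.745% fell. The part of activated microglia in the rises of Ddx60, Il10rb and Nlrc5 in immune cells was not tested. In vascular cells 5 of 30 rose (against 4.77% of all genes), led by Sp100 (0.78, adjusted p = 0.00233), a nuclear body protein, Trim25 (0.47, adjusted p = 0.0106), the ligase that activates RIG-I, and Ifi203 (0.80, adjusted p = 0.0139). With the makeup of the class held fixed, the ratio of LPA to Vehicle was 1.58 in place of 1.71 for Sp100 and 1.11 in place of 1.38 for Trim25, both without overlap, and 1.14 in place of 1.76 for Ifi203 and 1.02 in place of 1.55 for Mndal, both with overlap. For Ifnar1 it was 1.09 in place of 1.34, with overlap. Tested within a single vascular subtype, Sp100 rose in meningeal cells as well (1.03, adjusted p = 0.0324).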

How the data were processed

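Nuclei from 6 brains were measured by 10x Genomics 3′ v3 single-nucleus RNA-sequencing. The authors made the deposited matrices with Cell Ranger 4.0.0 on a pre-mRNA reference of mm10, and they hold raw UMI counts per gene and nucleus, without normalization. Other settings were Cell Ranger's defaults, under which reads of the sense strand are counted for this kit.

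The study's filters were followed, with a minimum of 300 genes, mitochondrial UMIs of no more than 1% and a UMI count under the third quartile of a library plus 1.5 interquartile ranges, which left 87.7% to 91.9% of barcodes. Clusters were made with scanpy 1.11.5 (Python 3.11.15) and leidenalg 0.10.2 at resolution 1 on 3000 variable genes, 40 principal components and 30 neighbors, and named from marker lists. The limits that left clusters without a name were chosen with the clusters in view. Scrublet called 12.3% to 15.7% of nuclei, which were left out only in an alternative. The study's integration and label transfer were not repeated, and a difference from it may come from rebuilt names.

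UMIs were summed per library and class and tested with edgeR 4.0.16 (R 4.3.3; default filter on low counts, TMM factors, quasi-likelihood test), LPA against Vehicle, without covariates, and with Benjamini-Hochberg adjustment. CPM values use all UMIs of the class. The script was tested on simulated data. An exact permutation test had been planned for the share of nuclei with several members, but its p is not given, since the members and gene lists were chosen with earlier results of these data known. Values in every library are given for members called in a class and for the 2 members with the most UMIs in each of the 6 classes; other members within reach of the threshold (adjusted p under 0.1) were named after their values were seen. From the pathway lists the genes called are named, at most 4 per class, with Tmem173 and Mndal (vascular cells) added after their values were seen. Promoter windows are shown for members with the motif and the lowest adjusted p. Sequences are RefSeq's (GRCm38.p6) and gene positions those of GENCODE M21 on GRCm38, counted from 1. Alternatives were DESeq2 1.42.0, no filter on low counts, a term for sex, a replicate block, no mitochondrial filter, Scrublet calls left out, Leiden resolution 2, no limit on the fold change, each library left out, and, chosen after seeing the data, fits per cluster and levels and differences between classes at fixed makeup. Shares of nuclei are given per library, with the spread between libraries as their error, and the upper limit beside a share of 0 comes from 3 counts and covers counting error only.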

Additional observations from a re-analysis of the deposited data

Results flagged for a closer look

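The change of a member under LPA differed between classes of the same libraries in 11 tests of the interaction of class and treatment (edgeR's quasi-likelihood test with library as a term, Benjamini-Hochberg adjustment within a pair of classes). The 11 were 2.96% of the tests of members, against 3.73% of the tests of all genes in the same 15 pairs. Values are differences of log2 fold changes, the first class minus the second. Between astrocytes and oligodendrocytes, Stat2 differed by 0.49 (adjusted p = 0.00179), Trim30a by 1.40 (adjusted p = 0.0223) and Eif2ak2 by −0.59 (adjusted p = 0.0390). Between astrocytes and vascular cells, Ifit2 differed by 2.18 (adjusted p = 0.00508), Parp14 by 1.23 (adjusted p = 0.0115), Ifi27 by 0.59 (adjusted p = 0.0200) and Stat2 by 0.45 (adjusted p = 0.0223). Stat2 also differed between immune cells and oligodendrocytes by 0.81 (adjusted p = 0.0297) and between neurons and oligodendrocytes by 0.39 (adjusted p = 0.00816). Between oligodendrocytes and vascular cells, Eif2ak2 differed by 0.71 (adjusted p = 0.0202) and Ifit2 by 1.26 (adjusted p = 0.0320). Only Stat2 in astrocytes minus oligodendrocytes and Ifit2 in astrocytes minus vascular cells passed in all 6 fits that left out 1 library. The difference of Trim30a was lost without LPA 1, LPA 3 or Vehicle 1, and that of Stat2 in immune cells minus oligodendrocytes had an adjusted p of 0.561 without Vehicle 2.

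The 7044 unnamed nuclei, which entered no comparison, also held member UMIs, and their summed level was 282 ± 5.7 CPM in LPA libraries and 263 ± 9.1 CPM in Vehicle libraries (SD, n = 3), a ratio of 1.07 without overlap.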

How the results depend on the processing

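The count of called members was 5 in astrocytes, 2 in vascular cells, 1 in oligodendrocytes and 0 in the other classes. In astrocytes it was 3 with DESeq2, 3 with a term for sex, 7 without a filter on low counts and 6 at Leiden resolution 2. In vascular cells 1 member, Ifit2, was called lower without that filter (beside 2 higher), with a term for sex (beside 1 higher) and without Vehicle 1 (beside 2 higher). Without a filter on low counts the count was 1 in ependymal cells, 1 in immune cells and 3 in oligodendrocytes. In immune cells it was also 1 without the mitochondrial filter and 1 with Scrublet calls left out, and in vascular cells 1 without the mitochondrial filter. In oligodendrocytes it was 0 with a term for sex and 2 at Leiden resolution 2. With single libraries left out it was 2 to 5 in astrocytes, 0 to 2 in ependymal cells, 0 to 1 in immune cells, 0 to 3 in oligodendrocytes, 1 to 3 in vascular cells and 0 elsewhere. The cause of these moves was not tested. Slfn5, Rnf213 and Ddx58 kept their call in 14 of 14 alternative fits, Trim30a in 12, Stat2 in 10, Eif2ak2 in 9, Xaf1 in 8 and Parp14 in 6, and none of the 8 changed direction in any of them.

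With a replicate block, the count was 4 in astrocytes, 0 in oligodendrocytes and 2 in vascular cells, Parp14 and Eif2ak2 losing their calls (adjusted p = 0.0552 and 0.0670), and no other call changed. The replicate numbers do not pair the libraries by any label. Libraries numbered 3 deviated in opposite directions (r from −0.54 to −0.04 over the classes), while 17 of 33 pairs with the same number had r over 0.1. The sign of r followed the sex of the libraries, positive within a sex and negative between the sexes in every class. In astrocytes, for example, r was 0.59 for LPA 1 with Vehicle 3, both male, and −0.73 for LPA 1 with Vehicle 2. The main fits hold no term for sex, and the cause of this pattern was not tested.

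With each library left out in turn, the differences between classes ranged as follows. Between astrocytes and oligodendrocytes they were 0.42 to 0.58 for Stat2, 0.91 to 1.62 for Trim30a and −0.68 to −0.44 for Eif2ak2. Between astrocytes and vascular cells they were 1.82 to 2.64 for Ifit2, 0.97 to 1.35 for Parp14, 0.49 to 0.70 for Ifi27 and 0.43 to 0.47 for Stat2. For Stat2 they were 0.56 to 0.97 between immune cells and oligodendrocytes and 0.34 to 0.44 between neurons and oligodendrocytes. Between oligodendrocytes and vascular cells they were 0.58 to 0.82 for Eif2ak2 and 1.09 to 1.47 for Ifit2. No direction changed, and 28 of these 66 fits missed the threshold. With the makeup of both classes held fixed, a comparison without a test that was chosen after seeing the data, the differences between astrocytes and oligodendrocytes were 0.27 for Stat2 and −0.35 for Eif2ak2, those between astrocytes and vascular cells 1.28 for Ifit2, 0.23 for Ifi27 and 0.27 for Stat2, and those between oligodendrocytes and vascular cells 0.46 for Eif2ak2 and 0.59 for Ifit2, all nearer to 0 than as sequenced. Those of Trim30a and Parp14 moved by less than 1 SE.

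The ratio of summed levels in oligodendrocytes was 1.29 as a median over members, and with single libraries left out it crossed 1 in oligodendrocytes, meningeal cells and macrophages (0.975 to 1.14, 0.968 to 1.08 and 0.739 to 1.01). The difference in the share of nuclei with several members (LPA minus Vehicle, in percentage points) was larger when 3 members sufficed, at 5.63 in astrocytes, 11.98 in immune cells, 0.82 in neurons, 2.08 in oligodendrocytes and 11.3 in homeostatic microglia. After thinning it was 0.472 in astrocytes, 0.450 in ependymal cells, 0.855 in vascular cells and −0.565 in meningeal cells. Depth limits the sparse members, and Zbp1, Oas3 and Rsad2 were tested in none of the 6 classes.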

Other observations

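Activated microglia, which only LPA libraries held in number, had a summed member level of 1216, 1354 and 1232 CPM in LPA 1, LPA 2 and LPA 3, from 107, 169 and 177 nuclei. Homeostatic microglia of the same libraries stood at 901, 934 and 1080 CPM. The 2 nuclei of this subtype in Vehicle libraries had 1 member UMI among 5506, too few for a level. Summed over LPA and Vehicle libraries, Trim30a and Rnf213 had the most UMIs of all members in activated microglia, as they did in homeostatic microglia.

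Nuclei with many members at once occurred in both groups. At least 6 members were found in 11 of 1720, 10 of 2096 and 15 of 1604 astrocytes of LPA 1, LPA 2 and LPA 3, with up to 16 members in 1 nucleus. In Vehicle 1, Vehicle 2 and Vehicle 3 it was 3 of 1115, 4 of 1983 and 4 of 1867, with up to 15. Astrocytes of LPA libraries were sequenced more deeply, and these counts were not thinned. None of these 47 astrocytes was called a doublet by Scrublet.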
